A study of Mus musculus with 7 samples.

Results

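EF-hand proteins bind calcium in a loop between a pair of helices, and neurons use them in different ways. Calbindin D28k (*Calb1*), calretinin (*Calb2*) and parvalbumin (*Pvalb*) hold calcium as buffers and are widely used to tell classes of GABA neurons apart, although *Calb1* is also made by excitatory neurons and *Calb2* by Cajal-Retzius cells. The NECAB proteins (*Necab1*, *Necab2*, *Necab3*) carry an EF-hand at one end, and hippocalcin (*Hpca*), its relatives *Hpcal1* and *Hpcal4*, and neurocalcin delta (*Ncald*) are sensors that move to membranes when calcium binds. These 10 genes were examined on every probe set that the array annotation gives to 1 of them alone. Of 18 such probe sets, 1 with a name ending in _x_at was left out and 2 stayed under an intensity of 50 on every array. The other 15 were tested among 22748 probe sets in all, and each of the 10 genes had at least 1.

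The RNA came from cortical neurons of C57/Bl6J mouse embryos, taken at embryonic day 16 and grown for 16 days in vitro. Luciferase neurons (n = 4) received a lentivirus with a short hairpin against luciferase, a firefly gene that mice lack, and blank neurons (n = 3) received no virus. The study left an untransduced sample out after quality control. The vector also codes for green fluorescent protein, so the hairpin, the virus and that protein cannot be told apart in this comparison. The study numbers the cultures as replicates but names no separate litters, so p-values measure only how far these samples vary, which may be technical variation. As deposited, each blank value sits 1 row below the probe set it belongs to, and these columns were moved up by 1. Across probe sets the Pearson r between the mean log2 levels of both groups was 0.995 after the move and 0.421 before it. Pairs of luciferase arrays had r from 0.993 to 0.996 and pairs of blank arrays from 0.989 to 0.995, while across the groups r ran from 0.977 to 0.985. Neuron markers were high on all arrays, with a summed level over 10 genes of 46449 to 47689 in luciferase neurons and 45336 to 47880 in blank neurons.

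In luciferase neurons *Calb1*, *Calb2*, 1 probe set of *Necab1* and *Necab3* were higher than in blank neurons, and *Hpca* was lower. *Pvalb*, *Necab2*, *Hpcal1*, *Hpcal4* and *Ncald* did not pass the test. The test was limma on log2 intensity with Benjamini-Hochberg adjustment over all 22748 probe sets, and a probe set passed at an adjusted p of at most 0.05. Of the 15 probe sets, 6 passed as higher, 2 passed as lower and 7 did not, where 16.2% of all tested probe sets were higher and 8.26% were lower. A call also needed a change of at least 1.5-fold. Called probe sets numbered 5 higher and 0 lower among the members, while 2.9% of all tested probe sets were called higher, 1.29% lower and 4.19% in either direction. Most of these 5 are probe sets of *Calb1*. With each gene read by its probe set of highest mean, 2 of the 10 members were called higher and 0 lower. Over all 12315 genes read in this way, 320 were called higher and 180 lower. On 7 of the 15 every luciferase array lay above every blank array and on 2 every luciferase array lay below, a pattern found in 22.5% and 12.3% of all tested probe sets. The median log2 change was 0.15 over the 15 probe sets and 0.056 over all probe sets.

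**Figure D1:**
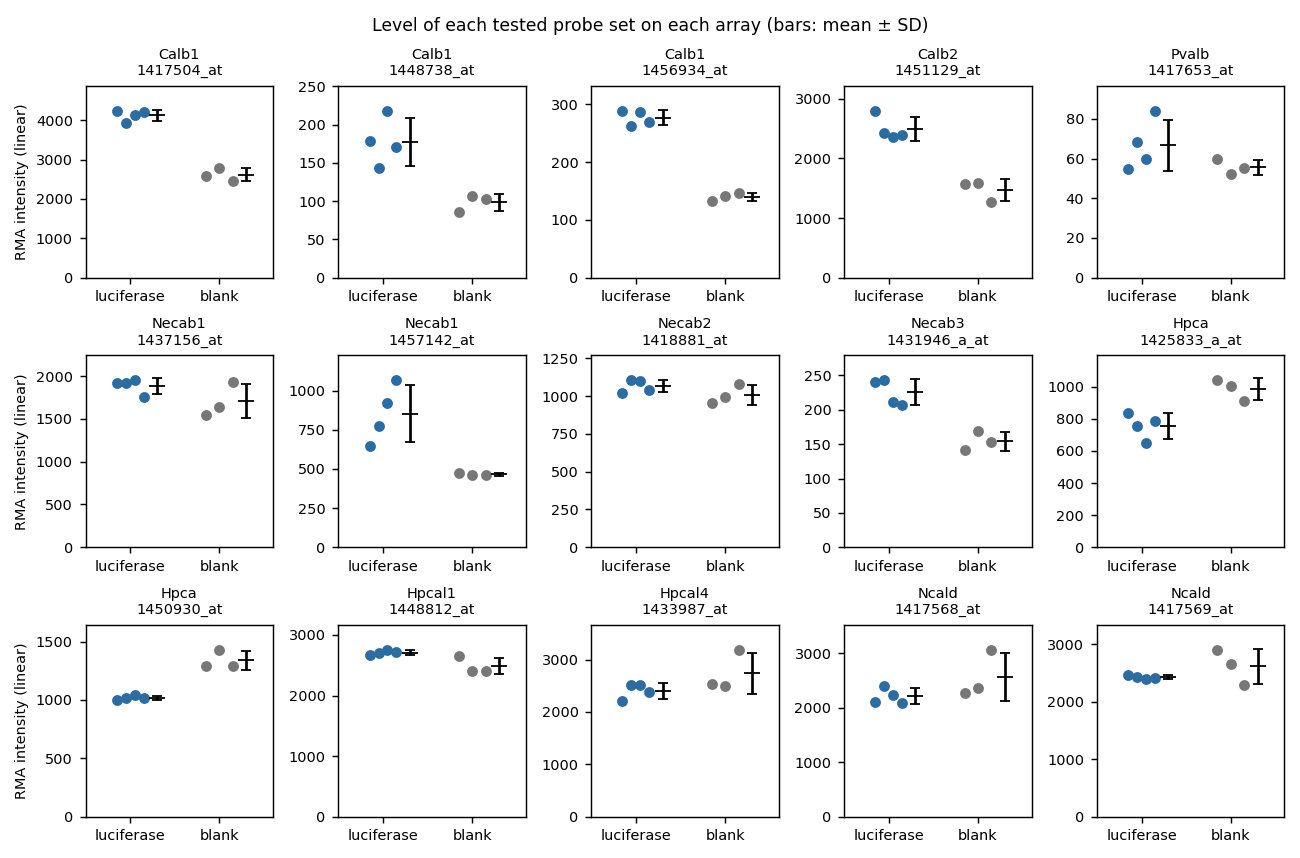
RMA intensity on a linear scale for the 15 tested probe sets, in luciferase neurons (blue, n = 4) and blank neurons (grey, n = 3); each point is an array, with the mean ± SD drawn as a bar at its side. The groups stand apart in the 3 probe sets of *Calb1*, in *Calb2*, *Necab3* and *Hpca*, narrowly in *Hpcal1*, and in 1 of the 2 probe sets of *Necab1*, but not in *Pvalb*.

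All 3 tested probe sets of *Calb1* rose in luciferase neurons. The probe set with the highest level (1417504_at) read 4239, 3926, 4139.9 and 4199.97 in luciferase neurons and 2582, 2792 and 2464 in blank neurons. The lowest luciferase array thus stood well above the highest blank array, and the spread within each group was narrow. Luciferase neurons averaged 4126 ± 139 (SD, n = 4) and blank neurons 2612 ± 166 (SD, n = 3), a 1.58-fold difference (log2 change 0.66 with a standard error, SE, of 0.074, limma adjusted p = 7.2e-04). The dimmer probe set 1456934_at read 289, 262, 287 and 269.6 in luciferase neurons and 132, 141 and 146 in blank neurons. Here no luciferase array came near the blank arrays, and the 1.98-fold rise was the largest among the members (log2 change 0.99, SE 0.074, limma adjusted p = 1.2e-04). The remaining tested probe set, 1448738_at, read 178, 143, 218 and 170.2 in luciferase neurons and 86.3, 106 and 103 in blank neurons. It was the most variable of the 3 among luciferase arrays, with a log2 change of 0.84 (SE 0.14, limma adjusted p = 0.0037). One more probe set of *Calb1*, 1458836_at, stayed between 8.13 and 11.8 on all 7 arrays and was not tested. The log2 change of 1456934_at exceeded that of 1417504_at by 0.33 (95% interval from 0.11 to 0.54), and this difference between probe sets, read within each array, missed the threshold over all such pairs (limma adjusted p = 0.096) but passed it without blank replicate 7 (0.40, limma adjusted p = 0.037). For 1448738_at against 1417504_at the difference was 0.18 (95% interval from -0.13 to 0.49, limma adjusted p = 0.514).

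*Calb2*, read by a single probe set (1451129_at), also rose. Luciferase neurons gave 2798, 2417, 2354 and 2396, and blank neurons 1564, 1581 and 1262. All luciferase arrays were above all blank arrays, and luciferase replicate 1 was the highest by a clear margin. Luciferase neurons averaged 2491 ± 206 (SD, n = 4) and blank neurons 1469 ± 179 (SD, n = 3), a 1.70-fold difference (log2 change 0.77, SE 0.10, limma adjusted p = 0.0016). Without luciferase replicate 1 the log2 change was 0.71 (limma adjusted p = 0.0043).

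*Pvalb* lay near the lower limit of what was tested. It read 54.6, 68.3, 59.98 and 84.1 in luciferase neurons and 59.6, 52.15 and 55.2 in blank neurons. The groups overlapped, since luciferase replicate 1 was below 2 of the blank arrays, and the difference did not pass (log2 change 0.25, 95% interval from -0.059 to 0.55, limma adjusted p = 0.210). Without luciferase replicate 4 its log2 change was 0.13 (limma adjusted p = 0.410). Just outside the limit of 50 lay a further probe set of *Ncald*, 1444466_at, which read at most 37.97 on any array.

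Because the 3 buffers are used to mark GABA neurons, other markers of that class and of its subtypes were read on the same arrays. Of 17 listed markers 14 were measured, with 1 higher, 1 lower and 12 that did not pass. With quantile normalization or with each array centred on its median, 0 were higher and 3 were lower. Their summed level was 11233 to 11466 in luciferase neurons and 10738 to 11804 in blank neurons (two-sided exact permutation test over 35 splits of the arrays, p = 0.600, where the smallest possible is 0.029). *Gad1*, the gene of a GABA-synthesizing enzyme, is given as an example chosen after its values were seen. It read 3012, 3253, 3361 and 2943 in luciferase neurons and 3085, 3452 and 3981 in blank neurons. Without *Gad1*, the brightest of the list, the sums were 7872 to 8522 in luciferase neurons and 7463 to 7823 in blank neurons (exact permutation p = 0.057), a check added after seeing the data. Within that sum *Cck* differed most in mean level, at 2741 in luciferase neurons and 2289 in blank neurons (log2 change 0.25, limma adjusted p = 0.078). Over the 14 measured markers the median log2 change was -0.010. The 2 probe sets of *Gad1* had log2 changes of -0.15 and -0.068. Those of *Gad2*, the gene of another such enzyme, had -0.21 and -0.16, and none of these passed. Other markers had positive changes that did not pass, such as *Dlx1* at 0.18 (limma adjusted p = 0.206). *Slc32a1*, the vesicular GABA transporter, fell by 0.25 on the log2 scale (limma adjusted p = 0.023), although its call was lost without luciferase replicate 1 or 3, without blank replicate 5 or 6, or with no filter on level, with an adjusted p of up to 0.058 from limma. The 2 probe sets of *Slc32a1* had log2 changes of -0.25 and -0.076, of which 1 passed. *Reln*, which encodes a secreted glycoprotein of Cajal-Retzius cells and of some GABA neurons, rose by 0.37 (limma adjusted p = 0.041); this call was lost under 9 of 15 other settings. Of the 6 markers listed for Cajal-Retzius cells, only *Reln* and *Ndnf* were measured, and *Reln* stands in both lists. *Trp73*, *Lhx1*, *Lhx5* and *Ebf3* stayed under 50 on every array, at most 46.8. In whole cultures a change in the number of cells of a type and a change in RNA per cell cannot be told apart.

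The NECAB genes did not move alike. *Necab1* has a bright and a dim probe set. The bright one (1437156_at) read 1917, 1915, 1951 and 1753 in luciferase neurons and 1551, 1645 and 1934 in blank neurons. Blank replicate 7 lay within the luciferase range, so the groups overlapped, and the difference did not pass (log2 change 0.15, 95% interval from -0.059 to 0.35, limma adjusted p = 0.266). The dim one (1457142_at) read 648, 777, 919.8 and 1066 in luciferase neurons and 474, 461 and 459 in blank neurons. Here the luciferase arrays spread widely, with an SD of 180.4 (n = 4) against 8.52 in blank neurons (n = 3), and even the lowest luciferase array was above all blank arrays (log2 change 0.85, SE 0.15, limma adjusted p = 0.0047). Whether the 2 probe sets of a gene moved unequally was tested on their within-array difference. For *Necab1* the log2 changes differed by 0.71 (95% interval from 0.29 to 1.12), with an adjusted p of 0.066 from limma over 8221 such pairs, of which 3.38% passed. This difference thus missed the threshold, and passed it without luciferase replicate 1 (0.84, limma adjusted p = 0.037). The bright probe set itself passed with array weights (log2 change 0.26, limma adjusted p = 0.014) and without blank replicate 7 (0.24, limma adjusted p = 0.0453), but its change was 0.049 with median-centred arrays (limma adjusted p = 0.689), 0.091 with quantile normalization (limma adjusted p = 0.431) and 0.078 without blank replicate 5 (limma adjusted p = 0.620).

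*Necab2*, with a single probe set (1418881_at), read 1024, 1106, 1101 and 1041 in luciferase neurons and 953, 992 and 1082 in blank neurons. The groups overlapped through blank replicate 7, and the interval of the log2 change ran from -0.086 to 0.25 (change 0.083, limma adjusted p = 0.445). It was -0.013 with median-centred arrays (limma adjusted p = 0.909), while it was 0.043 without blank replicate 5 (limma adjusted p = 0.768) and 0.15 with array weights (limma adjusted p = 0.073). *Necab3*, a NECAB protein that binds the amyloid precursor adaptor APBA2, read 241, 243, 212 and 207 on probe set 1431946_a_at in luciferase neurons and 141, 169 and 153 in blank neurons. Every luciferase array was above every blank array, but the log2 change of 0.55 (SE 0.093, limma adjusted p = 0.0044) is below the 1.5-fold line. The other probe set of *Necab3*, 1447907_x_at, was left out for its name, which marks probes that may bind other transcripts. It read 74.0, 49.7, 71.3 and 53.15 in luciferase neurons and 45.6, 67.7 and 64.8 in blank neurons, with much overlap. When such probe sets were kept, its log2 change was 0.062 (limma adjusted p = 0.821).

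**Figure D2:**
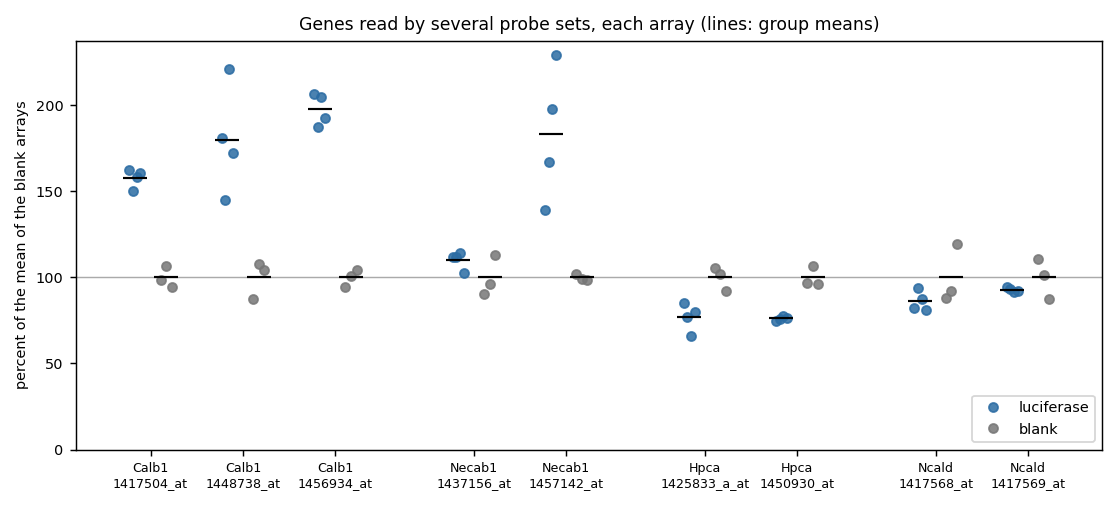
Levels of the 4 members with several tested probe sets, scaled so that the blank mean of each probe set is 100%, in luciferase neurons (blue, n = 4) and blank neurons (grey, n = 3); points are arrays and lines are group means. The 3 probe sets of *Calb1* and the 2 of *Hpca* moved the same way, while the 2 probe sets of *Necab1* stood at 110.2% and 183.5% of blank.

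*Hpca*, the hippocalcin gene, was lower in luciferase neurons on both of its probe sets. The brighter one (1450930_at) read 1001, 1014, 1042 and 1021 in luciferase neurons and 1294, 1429 and 1290.4 in blank neurons. The luciferase arrays were tightly grouped below all blank arrays (log2 change -0.39, SE 0.071, limma adjusted p = 0.0056). The other (1425833_a_at) read 839, 756, 648 and 786.5 in luciferase neurons and 1040.1, 1005 and 909 in blank neurons. These groups did not overlap either (log2 change -0.38, SE 0.099, limma adjusted p = 0.023), and the 2 probe sets of *Hpca* differed in log2 change by 0.0084, with a 95% interval from -0.26 to 0.28 (limma adjusted p = 0.983). The luciferase means were 76.2% and 76.9% of the blank means, short of 1.5-fold. The second probe set no longer passed without luciferase replicate 2, blank replicate 5 or blank replicate 6, with an adjusted p of up to 0.082 from limma.

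The other members of the hippocalcin family had small differences that did not pass. *Hpcal1* (1448812_at) read 2662, 2698, 2755 and 2713 in luciferase neurons and 2646, 2413 and 2399.8 in blank neurons. All luciferase arrays were above the blank arrays by a narrow margin, with a log2 change of 0.12 (95% interval from -0.032 to 0.28, limma adjusted p = 0.218), which was 0.028 with median-centred arrays (limma adjusted p = 0.803). *Hpcal4* (1433987_at) read 2201, 2505, 2523 and 2373 in luciferase neurons and 2529, 2489 and 3185 in blank neurons. Blank replicate 7 was far above the other arrays, and the log2 change was -0.18 (95% interval from -0.41 to 0.048, limma adjusted p = 0.219). With each array centred on its median it passed (-0.28, limma adjusted p = 0.049), while the change was -0.066 without blank replicate 7 (limma adjusted p = 0.557) and -0.086 with array weights (limma adjusted p = 0.366).

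*Ncald* showed that blank replicate 7 can lie at either end within 1 gene. On probe set 1417568_at the luciferase arrays read 2111, 2401, 2238 and 2078 and the blank arrays 2261, 2361 and 3059, with blank replicate 7 the highest of all. On probe set 1417569_at the luciferase arrays read 2473, 2437, 2405 and 2417 and the blank arrays 2904, 2660.1 and 2293, with blank replicate 7 the lowest of all. The log2 changes were -0.20 and -0.10, with 95% intervals from -0.45 to 0.047 and from -0.30 to 0.097 (limma adjusted p = 0.207 and 0.430). Over the 15 probe sets blank replicate 7 was the highest of the 3 blank arrays on 5 and the lowest on 7, and the blank arrays had the larger SD of log2 level on 11. The 1417569_at probe set passed with array weights (log2 change -0.21, limma adjusted p = 0.027) but changed by only -0.022 without blank replicate 5 (limma adjusted p = 0.890). The change of 1417568_at was -0.069 without blank replicate 7 (limma adjusted p = 0.549).

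**Figure D3:**
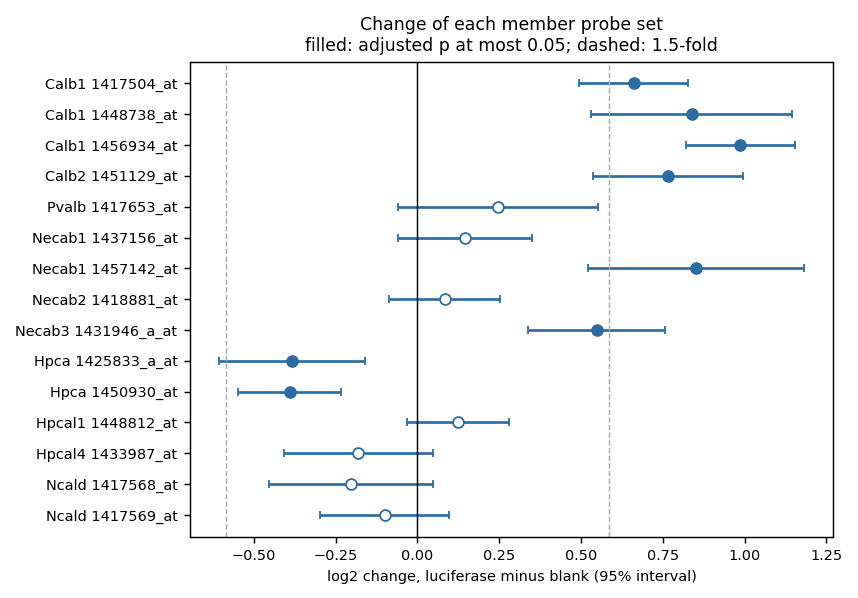
Log2 change, luciferase minus blank, of the 15 tested probe sets with 95% intervals from limma; filled points passed an adjusted p of 0.05 and dashed lines mark 1.5-fold. The 5 probe sets past the upper dashed line are 3 of *Calb1*, 1 of *Calb2* and 1 of *Necab1*, and both points of *Hpca* lie between -0.39 and -0.38.

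RefSeq promoter windows (GRCm38.p6) were listed for 6 of the 10 members, namely *Pvalb*, *Necab2*, *Necab3*, *Hpca*, *Hpcal1* and *Hpcal4*. Those of *Necab3* and *Hpca* are shown because these genes passed the test in opposite directions. Each is the first listed start and gives the 250 bases before it, 5′ to 3′ on the gene's strand, with CCAAT and the GC box GGGCGG in capitals on either strand.
Necab3, chr2:154558855-154559104, minus strand: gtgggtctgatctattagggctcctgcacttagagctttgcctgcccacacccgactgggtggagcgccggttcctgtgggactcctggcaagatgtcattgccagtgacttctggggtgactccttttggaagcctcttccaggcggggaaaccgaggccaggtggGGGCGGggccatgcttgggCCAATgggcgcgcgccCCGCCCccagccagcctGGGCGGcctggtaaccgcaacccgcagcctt
Hpca, chr4:129121748-129121997, minus strand: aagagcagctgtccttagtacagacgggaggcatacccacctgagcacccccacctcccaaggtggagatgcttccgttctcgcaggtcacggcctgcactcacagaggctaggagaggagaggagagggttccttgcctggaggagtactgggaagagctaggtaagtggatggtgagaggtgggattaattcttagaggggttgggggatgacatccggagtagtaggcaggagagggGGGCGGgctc
Over all 10 windows of these members, of which the 2 of *Necab3* overlap, GGGCGG was found in 6 windows and CCAAT in 3, against 32.7% and 33.8% of 32851 windows of all genes. The cAMP response element TGACGTCA was found in 0 of the 10 windows and in 1.55% of all windows. The AP-1 site TGANTCA was found in 1, of *Necab2*, and in 6.75% of all windows. TGACG and TATAAA were found in 0 of the 10, against 17.8% and 12.4% of all windows, and the E-box CACGTG in 1, of *Hpca*, against 6.02%. These matches are a description of the letters in these windows.

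*Calb1* and *Necab1* lie close together on 1 chromosome. In the RefSeq table the protein-coding gene listed between them is *Tmem64*, which encodes a membrane protein. It moved the other way, with a log2 change of -0.72 (limma adjusted p = 9.1e-04).

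The genes whose profiles over the 7 arrays came closest to the called probe sets were found by the root mean square difference of centred log2 levels. For *Calb1* on 1456934_at the closest was the activin receptor gene *Acvr2a*, at 0.018, followed by the semaphorin receptor *Plxnc1* at 0.072 and *1700086L19Rik* at 0.076. For *Calb1* on 1417504_at they were *2810001G20Rik*, *Rnf144a* and *Cyp4v3*, at 0.040 to 0.047, and on 1448738_at *St18*, *Ascl2* and *Sorcs1*, at 0.11 to 0.12. For *Calb2* they were the carbonic anhydrase gene *Car2* at 0.056, *Phf14* at 0.071 and *Acvr2a* at 0.074. For *Necab1* on 1457142_at they were the transcription factor gene *Klf7* at 0.064, *Tnrc18* at 0.10 and *Cabin1*, which encodes an inhibitor of calcineurin, at 0.10. Since the called probe sets stand apart between the groups, genes found in this way differ between the groups too.

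Among 71 other EF-hand genes, 46 were measured, each by its probe set with the highest mean. Of these 16 passed as higher in luciferase neurons and 5 as lower, and the other 25 did not pass, where 16.9% of 12315 genes were higher and 8.55% were lower. The median log2 change was 0.13, against 0.057 over all genes. Read in the same way, 3 of the 10 members were higher, 1 was lower and 6 did not pass. The count of 16 higher genes was 9 with quantile normalization, 7 with each array centred on its median, and 7 to 9 without luciferase replicate 1, 2 or 3 or blank replicate 5 or 6. With array weights it was 21. No share of all genes is given at these settings, so these counts cannot be set against 16.9%. As deposited, the median level was 237 to 241 on luciferase arrays and 216 to 235 on blank arrays. The count of 5 lower genes was 3 with no filter on level and without luciferase replicate 2, 3 or 4 or blank replicate 5 or 6. It was 6 with array weights.

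Beside the members, 7 of 9 listed neuronal calcium sensors and KChIPs, which are sensors that bind potassium channels, were measured. Of these 1 was higher, 1 was lower and 5 did not pass, where 25.4% of all genes passed in either direction. *Kcnip2* was higher by 0.42 (limma adjusted p = 0.018), a call lost with quantile normalization, with each array centred and without blank replicate 5. Its 3 probe sets disagreed, with log2 changes from -0.39 to 0.62, and 2 of them passed as higher. *Guca1b*, a guanylate cyclase activator known from photoreceptors, was lower by 0.41 on the log2 scale (limma adjusted p = 0.040), a call lost under 7 of 14 other settings.

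Among calcium-binding proteins of the CaBP and calneuron type, 3 of 6 were measured, with 2 lower, 0 higher and 1 that did not pass. *Caln1*, which encodes calneuron 1, a calcium sensor of the Golgi, read 2287, 2229.6, 2344 and 2319 in luciferase neurons and 3144, 2995 and 2926 in blank neurons. The arrays of each group lay close together and the groups far apart, with a log2 change of -0.40 (SE 0.067, limma adjusted p = 0.0044). *Cabp7* fell by 0.25 on the log2 scale (limma adjusted p = 0.039), a call lost under 9 of 15 other settings.

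Tescalcin (*Tesc*), a calcineurin B relative that binds a sodium-proton exchanger, had the largest rise among the 46 measured EF-hand genes that are not members. It read 815, 760.4, 728 and 831 in luciferase neurons and 408, 423 and 446 in blank neurons. The groups were far apart, at 1.84-fold (log2 change 0.88, SE 0.077, limma adjusted p = 2.4e-04). Its probe set name ends in _s_at, which marks probes shared by several transcripts. Of 12 listed calmodulins and calcineurin B relatives only 3 were measured, of which 2 were higher and 1 did not pass. The second was *Cib1*, an integrin-binding protein, at 0.23 (limma adjusted p = 0.044), a call lost under 10 of 15 other settings.

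The S100 proteins, small EF-hand proteins that are abundant in glia, were the list with the highest median log2 change, 0.49. Of 15 listed genes 6 were measured, and 5 were higher and 1 was lower. Among these 5, 1 is also in the list of astrocyte markers, whose sum stood at 131.7% of blank, and a link between them was not tested. *S100a1* read 477, 494, 408 and 518 in luciferase neurons and 289.8, 276 and 282 in blank neurons, with a log2 change of 0.74 (limma adjusted p = 0.0010). *S100a6* read 84.1, 76.96, 73.5 and 108 in luciferase neurons and 45.1, 42.6 and 60.1 in blank neurons (0.80, limma adjusted p = 0.0075). *S100a13* was higher by 0.55 (limma adjusted p = 0.0031). *S100a10*, the partner of annexin A2, went the other way, with 1676, 1892, 1584 and 1863 in luciferase neurons and 2509, 2249 and 2590.2 in blank neurons (-0.48, limma adjusted p = 0.0066).

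Of 29 other EF-hand genes 27 were measured, and 8 were higher, 1 was lower and 18 did not pass. *Cetn4*, a centrin, fell by 0.52 on the log2 scale (limma adjusted p = 0.0023). Its 2 probe sets had log2 changes of -0.52 and -0.24, of which 1 passed. *Sri*, the gene of sorcin, which binds ryanodine receptors, was higher by 0.36 (limma adjusted p = 0.011). *Micu2*, a regulator of the mitochondrial calcium uniporter, was higher by 0.32 (limma adjusted p = 0.014), a call lost without blank replicate 6. The matrix gene *Smoc2*, among the 8 counted as higher, was higher by 0.48 (limma adjusted p = 0.035), a call lost under 6 of 14 other settings. It read 61.7, 71.5, 54.9 and 47.15 in luciferase neurons and 40.1, 37.85 and 47.8 in blank neurons, so the groups overlapped. Its blank arrays were all under 50, so it entered the test only through the luciferase arrays.

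**Figure D4:**
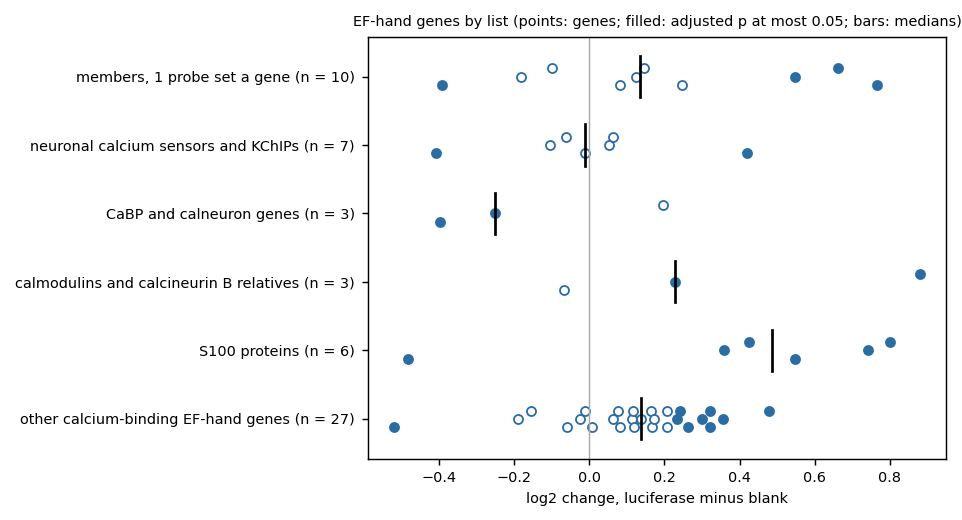
Log2 change, luciferase minus blank, of the member genes and of 5 lists of other EF-hand genes, each gene by its probe set with the highest mean; filled points passed an adjusted p of 0.05 and short bars are list medians. The S100 list has a median of 0.49 with 5 genes higher and 1 lower, and the neuronal calcium sensors and KChIPs have a median of -0.013.

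Markers of other cell types moved between the same arrays, and their part in the differences above was not tested. The 10 measured astrocyte markers of 11 summed to 24663 to 26976 in luciferase neurons and 18296 to 20366 in blank neurons (two-sided exact permutation p = 0.029), and 6 of them were higher and 0 lower. *Gfap*, the astrocyte filament gene, was higher by 1.19, *Aldh1l1* by 0.86 and *Aqp4* by 0.82 on the log2 scale (limma adjusted p = 6.0e-04, 2.4e-04 and 0.0013). The p-values of these sums were not adjusted for the number of lists, and 0.029 is the smallest that 35 splits allow. The 6 measured progenitor markers of 8 summed to 2600.5 to 2936 in luciferase neurons and 2316 to 2368 in blank neurons (exact permutation p = 0.029). Of these, *Pax6* was higher by 0.44 (limma adjusted p = 0.0040) and the other 5 did not pass. Without *Sox2*, the brightest of them, the sums were 1119.6 to 1577 in luciferase neurons and 1070.2 to 1164 in blank neurons (exact permutation p = 0.257). The 2 measured markers of 6 listed for Cajal-Retzius cells, *Reln* and *Ndnf*, summed to 787 to 1033 in luciferase neurons and 612 to 707 in blank neurons (exact permutation p = 0.029). Both passed, *Ndnf* at 0.31 (limma adjusted p = 0.028). Most of this sum is *Reln*, which is also in the GABA neuron list, and the other 4 listed genes stayed under 50. The sum thus does not read Cajal-Retzius cells alone. The call of *Ndnf* was lost under 6 of 14 other settings, and 0 of the 2 passed with no filter on level, with each array centred on its median, and without luciferase replicate 1 or 3 or blank replicate 6.

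The 7 measured vascular and meningeal markers of 10 summed to 666 to 864 in luciferase neurons and 1114 to 1226 in blank neurons (exact permutation p = 0.029), with 1 higher and 3 lower. The difference in the sum rested on *Dcn*, without which the other 6 summed to 301 to 323 in luciferase neurons and 287 to 354 in blank neurons (exact permutation p = 0.943), in a check added after seeing the data. The matrix gene *Dcn* fell to 50.5% of its blank mean and the endothelial receptor *Flt1* fell by 0.43 on the log2 scale, while the pericyte receptor *Pdgfrb* was higher by 0.70 (limma adjusted p = 0.0022, 0.0043 and 0.0095). The levels of *Flt1* and *Pdgfrb* lay near the limit of 50, at 48.75 to 55.35 and 73.2 to 83.8 in luciferase neurons. In blank neurons they were 67.4 to 70.9 and 37.99 to 62.05. The 2 probe sets of *Pdgfrb* had log2 changes of 0.70 and 0.19, of which 1 passed. *Col1a2*, also counted as lower, read 36.7 to 48.5 in luciferase neurons and 50.96 to 61.4 in blank neurons. Its luciferase arrays were all under 50, so it was tested only through the blank arrays. Of 9 microglia markers 7 stayed under 50 on every array, at most 23.9, and the other 2 summed to 172 to 205 in luciferase neurons and 195 to 280.4 in blank neurons (exact permutation p = 0.114). The 7 measured oligodendrocyte lineage markers of 9 summed to 6262 to 7467 in luciferase neurons and 6552 to 6725 in blank neurons (exact permutation p = 0.657), with 1 higher, *Mbp*, at 0.39 (limma adjusted p = 0.015). The *Mbp* call was lost without blank replicate 6 (limma adjusted p = 0.056), and its 5 probe sets had log2 changes from -0.26 to 0.60, of which 2 passed as higher. Among the 10 neuron markers 2 were higher, *Slc17a7* at 0.39 and *Camk2a* at 0.31, and 1 was lower, *Nefl* at -0.80 (limma adjusted p = 0.040, 0.026 and 3.4e-04), while their sum gave an exact permutation p of 0.543. The 5 probe sets of *Camk2a* had log2 changes from -0.24 to 0.51, of which 2 passed as higher. The call of *Slc17a7*, whose groups overlapped, was lost under 8 of 15 other settings and that of *Camk2a* under 5 of 15, and with median-centred arrays 0 neuron markers were higher and 2 were lower. Without luciferase replicate 2 or 3 or blank replicate 5 or 6, 0 neuron markers were higher.

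**Figure D5:**
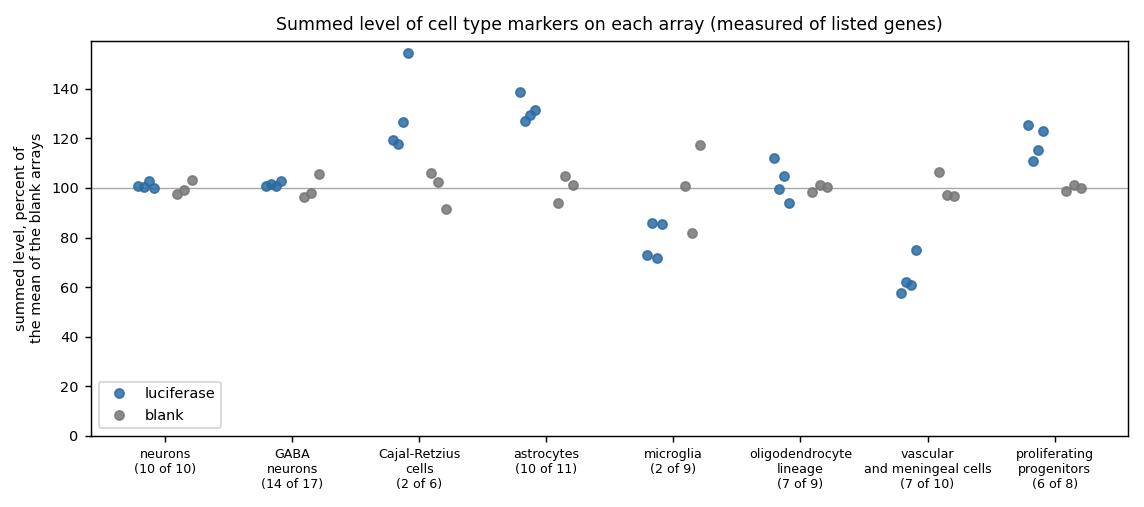
Summed intensity of the measured markers of 8 cell types, scaled so that the blank mean of each type is 100%, in luciferase neurons (blue, n = 4) and blank neurons (grey, n = 3); points are arrays. Astrocyte markers stood at 131.7% of blank and vascular and meningeal markers at 63.9%, while neuron and GABA neuron markers stood at 101.0% and 101.5%. Read gene by gene, the GABA neuron markers had a median log2 change of -0.010.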

How the data were processed

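RNA of 7 mouse cortical neuron cultures was measured on Affymetrix mouse whole-genome expression arrays. Per the labels, the authors normalized the scans by robust multi-array averaging (RMA), and the deposited values are linear intensities, from 4.69 to 23763.4. For the array data, a genome build was not given in the sources used here. The table has 45101 probe sets, and 0 columns belong to other samples. The blank columns were moved up by 1 row. Left out were 64 control probe sets, 2441 whose names hold _x and those under 50 on every array, which left 22748. Gene names came from the platform annotation, and 34741 were matched by Entrez ID. The log2 intensities were fitted by lmFit and eBayes of limma 3.58.1 (R 4.3.3), with Benjamini-Hochberg adjustment. A call needed 1.5-fold or more and an adjusted p no higher than 0.05. Sums of markers were compared by exact permutation over 35 splits (Python 3.11.15). Precision is limited by how many arrays there were. The fit was also run on simulated data with independent noise and no shift of whole arrays. That run could not show effects of array scaling.

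Every probe set of the 10 members was named, and in each list of other EF-hand genes up to 4, and of markers up to 3, with the largest change among those that passed. For each called probe set the 3 nearest profiles were named. Members and lists were chosen with earlier results of these data known. Alternatives were other level filters, quantile normalization, median centring, eBayes with trend and robust settings, array weights and each replicate left out. Marker sums without their brightest gene were added after seeing the data.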

Additional observations from a re-analysis of the deposited data

Results flagged for a closer look

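For 3 of 43 probe sets examined, 1 of the 4 luciferase arrays stood far from the other 3 relative to the range of all 4, where chance gives about 1 in 20. For *Calb2*, luciferase replicate 1 read 2798 and the others 2354 to 2417. For *Cabp7*, luciferase replicate 4 read 134 and the others 149.96 to 153. For the glutamate transporter gene *Slc17a7*, luciferase replicate 4 read 1018 and the others 1094 to 1098. Groups of 3 blank arrays were too small for this check.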

How the results depend on the processing

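No paired analysis was possible because the luciferase samples are numbered 1 to 4 and the blank samples 5 to 7, so that the groups share no replicate number. Over 15 alternatives the member probe sets called higher numbered 4 to 6 and those called lower 0. Of those past the adjusted p from limma, 6 to 7 were higher and 1 to 3 lower, with 1 to 2 lower when a replicate was left out. The other EF-hand genes that were higher numbered 9 with quantile normalization, 7 with centred arrays and 7 to 14 with a replicate left out. The lower ones numbered 3 with no filter on level and 3 to 4 with a replicate left out. With array weights 21 were higher and 6 lower. No share of all genes is given beside these counts. *Necab2* reversed with centred arrays (-0.013). The difference between the *Hpca* probe sets ranged from -0.052 to 0.092 and that between the *Ncald* probe sets from -0.26 to 0.12 with a replicate left out. The cause was not tested. Of all calls, 69.2% were higher as deposited, 56.8% with quantile normalization and 43.8% with centred arrays. Levels near 50, as for *Pvalb*, lie close to background and limit what can be seen there.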
